A study of Mus musculus with 4 samples.

Results

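The 31 genes described here carry out or feed the oxidation of fatty acids in mitochondria and peroxisomes, and were taken as a list of named enzymes and carriers from the 21883 protein-coding genes of the mouse RefSeq annotation. All 31 symbols were found. Chromatin accessibility at these genes was read from ATAC-seq peak lists of 4 libraries, an assay in which the Tn5 transposase cuts and tags open DNA. The cells were myeloid-derived suppressor cells (MDSCs), immature myeloid cells that restrain T cells in tumour-bearing hosts, sorted as Gr1+CD11b+ from ascitic fluid 14 days after the mice received EL4, a mouse T cell lymphoma line. The groups were Sphk2 KO (2 libraries), from mice lacking sphingosine kinase 2, and WT (2 libraries). All mice carried the tumour. The labels give neither the age or strain of the mice nor how Sphk2 was removed, they do not say whether the loss was limited to some cells, and they call the libraries biological replicates without tying them to single animals. Any p-value therefore measures the spread between libraries. The study title concerns lipid metabolism and immune function of MDSCs when this kinase is inhibited, and the comparison asks which regions at oxidation genes were called accessible in each genotype.

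Long-chain fatty acids are first joined to coenzyme A by acyl-CoA synthetases, then passed into mitochondria as carnitine esters, and are shortened there in repeated rounds of dehydrogenation, hydration, a second dehydrogenation and thiolysis. The electrons leave through the electron transfer flavoprotein, and peroxisomes shorten very long or branched chains that mitochondria take up poorly. In myeloid cells of tumours this pathway is known as a source of energy for suppressive cells, and many of its genes answer to PPAR and ERR nuclear receptors.

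The 6 promoters printed next (the 250 bases before a start listed by RefSeq, GRCm38.p6, the assembly that mm10 names) show the range of calls among the members. Etfdh carried the highest-ranked gene-end peak, Hadha shares its promoter with Hadhb, Cpt1a encodes the entry enzyme of the mitochondrial route, Ehhadh had a gene-end peak, just inside the gene beside this promoter, in WT libraries alone, and Echdc2 and Acsl6 had no peak in any library. In each label, the chromosome is the number before the point. Capitals mark exact matches, on either strand, to the motifs searched. These were the SP/KLF motif GGGCGG, the ETS motif CCGGAAGT, the E-box CACGTG, the CCAAT box read as ATTGG, the C/EBP motif TTGCGCAA, the PU.1 motif GAGGAAGT and the ERR element TCAAGGTCA. The palindromic NRF1 motif, which stands in capitals in the Etfdh promoter, and the PPAR direct repeat, in a strict and a relaxed form, were searched as well.
Etfdh, chr3.0:79628768-79629017, minus strand: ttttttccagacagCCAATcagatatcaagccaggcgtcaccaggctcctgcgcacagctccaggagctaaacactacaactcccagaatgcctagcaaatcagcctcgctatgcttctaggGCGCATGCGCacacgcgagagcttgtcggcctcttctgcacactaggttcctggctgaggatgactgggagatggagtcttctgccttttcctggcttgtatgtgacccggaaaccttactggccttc
Hadha, chr5.0:30154981-30155230, minus strand: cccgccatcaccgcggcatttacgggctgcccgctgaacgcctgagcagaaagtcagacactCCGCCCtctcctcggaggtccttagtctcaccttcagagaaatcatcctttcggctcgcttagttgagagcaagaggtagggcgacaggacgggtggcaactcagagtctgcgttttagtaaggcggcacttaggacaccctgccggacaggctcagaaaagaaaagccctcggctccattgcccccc
Cpt1a, chr19.0:3323051-3323300, plus strand: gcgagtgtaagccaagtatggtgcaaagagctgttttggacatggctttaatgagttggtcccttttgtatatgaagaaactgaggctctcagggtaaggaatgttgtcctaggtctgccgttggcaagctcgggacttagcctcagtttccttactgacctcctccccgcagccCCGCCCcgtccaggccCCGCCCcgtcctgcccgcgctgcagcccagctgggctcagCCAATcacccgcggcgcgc
Ehhadh, chr16.0:21787835-21788084, minus strand: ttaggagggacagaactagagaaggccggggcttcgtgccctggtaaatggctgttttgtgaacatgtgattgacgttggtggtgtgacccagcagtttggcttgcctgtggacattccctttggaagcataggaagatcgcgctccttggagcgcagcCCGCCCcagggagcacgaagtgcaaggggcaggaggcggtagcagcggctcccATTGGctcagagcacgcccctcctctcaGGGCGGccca
Echdc2, chr4.0:108165187-108165436, plus strand: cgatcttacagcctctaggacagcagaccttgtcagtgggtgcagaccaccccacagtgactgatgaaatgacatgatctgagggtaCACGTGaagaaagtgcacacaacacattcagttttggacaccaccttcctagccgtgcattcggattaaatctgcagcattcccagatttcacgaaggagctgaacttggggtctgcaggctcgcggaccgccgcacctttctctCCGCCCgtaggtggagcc
Acsl6, chr11.0:54303574-54303823, plus strand: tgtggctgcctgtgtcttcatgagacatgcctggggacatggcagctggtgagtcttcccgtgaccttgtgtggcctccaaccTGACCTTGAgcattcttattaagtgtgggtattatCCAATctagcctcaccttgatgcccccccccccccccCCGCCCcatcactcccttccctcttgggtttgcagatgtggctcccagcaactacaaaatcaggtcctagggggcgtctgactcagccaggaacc
The capitals are an NRF1 match and a CCAAT box in Etfdh, an SP/KLF match in Hadha, 2 SP/KLF matches and a CCAAT box each in Cpt1a and Ehhadh, an E-box and an SP/KLF match in Echdc2, and an ERR match, a CCAAT box and an SP/KLF match in Acsl6. The NRF1 match of Etfdh and the ERR match of Acsl6 were the sole ones among the 30 listed promoters of 27 members (3.33% each). Over all promoters the shares were 1.07% for NRF1 and 0.32% for the ERR element. A match is a string of letters and shows no binding.

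Sphk2 KO replicates 1 and 2 kept 25877428 and 27686223 fragments after duplicate removal and WT replicates 1 and 2 kept 33859480 and 34443062, and the lists held 20759 and 27446 peaks in Sphk2 KO and 31507 and 31843 in WT. Sphk2 KO replicate 1 thus had the fewest fragments and the shortest list, and a region without a call there may be accessible below the caller's threshold. Of 18 granulocytic and monocytic marker genes, 12 and 14 had a call near either end (1 kb or less) in Sphk2 KO and 14 and 13 in WT, among them Itgam, the gene of CD11b, in every library. Ltf, the gene of the neutrophil granule protein lactoferrin, was the only marker private to a genotype, with scores (−log10 q) of 2.43 and 7.805 in Sphk2 KO and no gene-end peak in WT. Ly6g, which encodes a Gr1 antigen, had none in any library, nor did Ccr2 and Mpo, and Csf3r had one in WT replicate 1 alone. T cell markers, which host T cells or EL4 cells would carry, stood at 2 and 2 of 12 genes in Sphk2 KO and at 2 and 6 in WT, the 6 being in WT replicate 2. None of 8 B cell markers or 15 genes silent in blood had a gene-end peak in any library. Of 5 natural killer cell markers, Tbx21 alone had a gene-end peak, in Sphk2 KO replicate 2. The part of cell composition in the calls below was not tested, and in such bulk libraries fewer cells of a type and less accessible DNA per cell cannot be told apart.

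Most oxidation genes were accessible at a gene end in both genotypes. A peak within 1 kb of either end was called at 25 and 26 of the 31 members in Sphk2 KO replicates 1 and 2 (80.6% and 83.9%) and at 28 in each WT library (90.3%). Over all protein-coding genes the shares were 42.5% and 47.2% in Sphk2 KO and 47.9% and 48.8% in WT. Both Sphk2 KO counts lay below both WT counts, for the members (25.5 ± 0.707 against 28 ± 0, mean ± SD, n = 2 each) as for all genes. A two-sided exact permutation test over libraries gave p = 0.333 for the members, the smallest p that 2 libraries against 2 allow. With peaks of −log10 q of at least 5, or with lists cut to the length of the shortest, the WT counts fell. The counts were then 25 and 26 in Sphk2 KO and 26 and 27 in WT, so that the member groups touched (exact permutation p = 0.667). Over all genes, both Sphk2 KO counts stayed below both WT counts at either setting. At the score limit, 8842 and 9881 genes were called in Sphk2 KO and 9882 and 10122 in WT. At equal list length, 9311 and 9710 were called in Sphk2 KO and 9768 and 9800 in WT. With the gene body extended by 10 kb on each side, 27 and 28 members had a peak in Sphk2 KO and 29 in each WT library (exact permutation p = 0.333). The shares over all genes were then 56.5% and 62.4% in Sphk2 KO and 64.5% and 65.1% in WT. A total of 25 members had a gene-end peak in all 4 libraries (41.6% of all genes did), and 3 had none in any (48.6% of all genes).

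**Figure D1:**
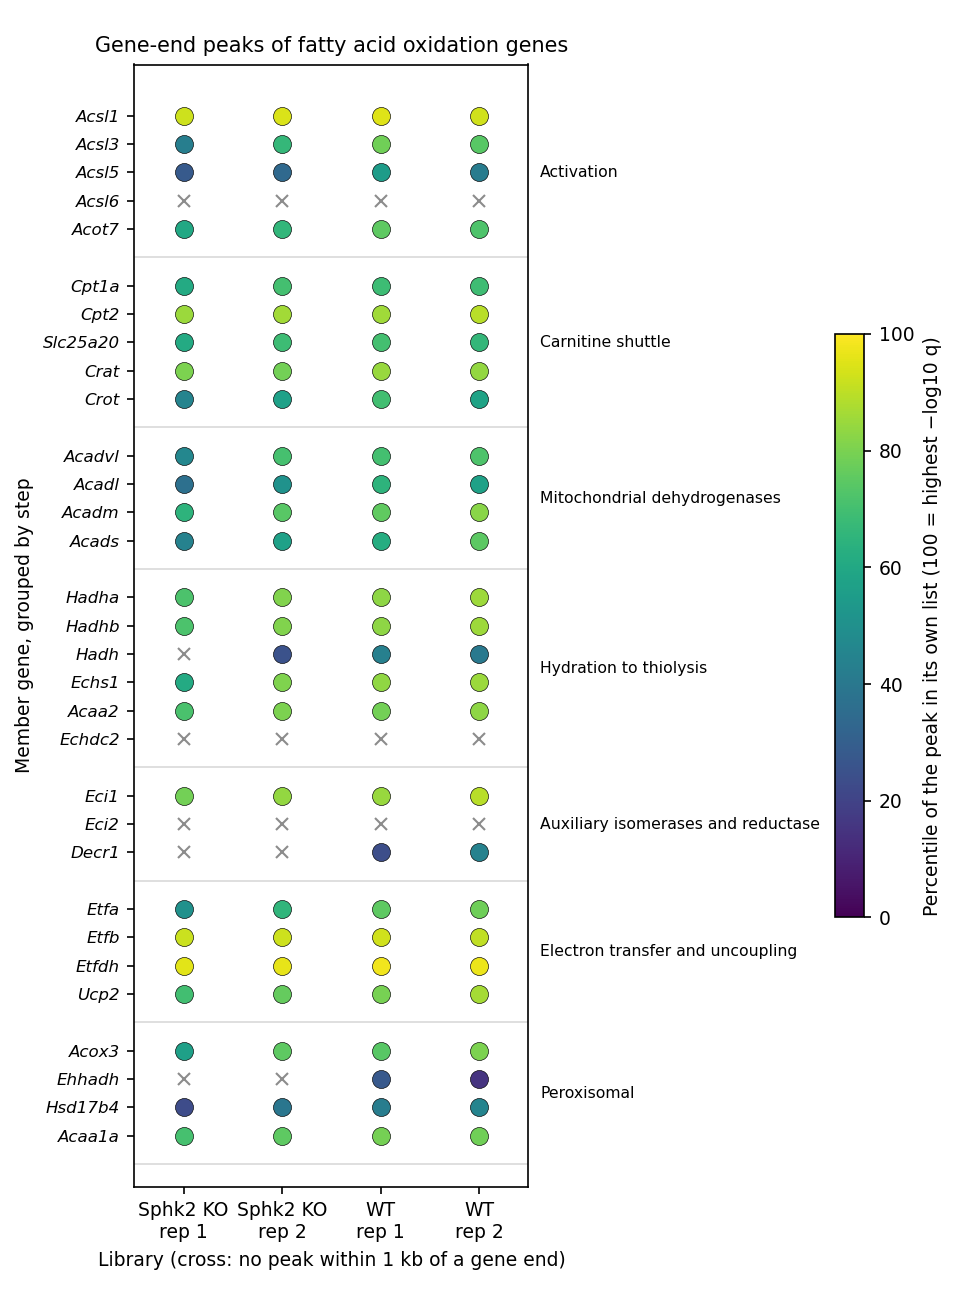
Each row is a member gene and each column a library, Sphk2 KO left of WT. The colour gives the percentile, within that library's own list, of the best gene-end region by −log10 q (100 is the highest score), and a cross marks a member without a gene-end call. Crosses in all columns stand at Acsl6, Echdc2 and Eci2, and crosses in Sphk2 KO columns alone at Decr1, Ehhadh and, for replicate 1, Hadh.

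Among genes that activate fatty acids, Acsl1, the main long-chain acyl-CoA synthetase of many fat-burning tissues, carried one of the strongest peaks of the list. Its gene-end region (chr8:46470287-46471756) had the authors' −log10 q of 79.4 and 159 in Sphk2 KO and of 116 and 107 in WT, which placed it at ranks 1600 and 1533 of the Sphk2 KO lists and 1569 and 2347 of the WT lists. These scores grow with depth and enrichment, so that their sizes, given here per library, do not compare accessibility between libraries. The genotypes are compared further below, by calls and by position within a library. Acsl1 also held the most regions of any member, 7 within the body extended by 10 kb, and 3 of these were shared by every library. Acsl3, a synthetase of the endoplasmic reticulum and lipid droplets, had −log10 q of 12.0 and 39.1 in Sphk2 KO and 44.0 and 41.1 in WT. Acsl3 shares this end with Utp14b. Acsl5 encodes a synthetase that also acts at mitochondria. Its gene-end region was weak (6.81 and 9.34 in Sphk2 KO, 14.8 and 9.72 in WT). A region inside the gene, merged from peaks of all libraries, had 24.9 and 46.3 in Sphk2 KO and 37.4 and 34.9 in WT. The merged region spans the listed start, but only the WT peaks covered that base. The Sphk2 KO peaks of the region did not reach it. Acot7, a thioesterase that reverses the activation, had its peak at the outer gene end in all libraries and 5 further regions inside the gene, none of them called in more than 2 libraries. Acsl6, a synthetase best known from brain, had no peak in its body or within 10 kb in any library.

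All 5 genes of the carnitine shuttle had a gene-end peak in all 4 libraries. Cpt1a makes acylcarnitines at the outer mitochondrial membrane, Slc25a20 carries them across the inner one and Cpt2 turns them back into acyl-CoA. Cpt2 ranked highest of these, with −log10 q of 55.9 and 96.4 in Sphk2 KO and 65.4 and 86.7 in WT (chr4:107922911-107923858). The Cpt1a region was the widest of all gene-end regions of the list, at 2559 bp (chr19:3321498-3324056), with −log10 q of 22.9 and 46.2 in Sphk2 KO and 27.9 and 32.6 in WT. Inside Cpt1a, near its far end, a further region at chr19:3376690-3377650 was called in all libraries (32.3 and 77.8 in Sphk2 KO, 46.3 and 51.6 in WT). Slc25a20 had 23.0 and 43.0 in Sphk2 KO and 29.8 and 28.2 in WT. Crat and Crot, which move short acetyl groups and peroxisomal medium-length acyl groups onto carnitine, were called in every library as well, and Crat shares its end with Ptpa.

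The 4 acyl-CoA dehydrogenases, which take the first step of each round and differ in the chain length they prefer, also had gene-end peaks in every library. Acadvl, for very long chains, had −log10 q of 13.7 and 47.3 in Sphk2 KO and 30.1 and 37.1 in WT. Acadm, for medium chains, had 26.4 and 54.8 in Sphk2 KO and 38.5 and 60.0 in WT. Acads, for short chains, had 12.7 and 25.5 in Sphk2 KO and 20.4 and 42.3 in WT. The Acadl end region, at the gene for long chains, had 9.80 and 19.7 in Sphk2 KO and 23.0 and 18.8 in WT. Sphk2 KO replicate 1 gave the lowest score at each of these genes, as it did at every shared gene-end region of the list.

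Of the 6 genes for hydration to thiolysis, Hadha and Hadhb encode the subunits of the mitochondrial trifunctional protein, which completes the round for long chains. They lie head to head, and 1 region (chr5:30154581-30156025) covers both starts, with −log10 q of 33.7 and 75.6 in Sphk2 KO and 56.3 and 70.3 in WT. Echs1, a short-chain enoyl-CoA hydratase, shares its peak with the end of Paox and had 22.9 and 74.9 in Sphk2 KO and 57.3 and 68.9 in WT. Acaa2, a mitochondrial thiolase, was called in every library. Hadh, the dehydrogenase for short and medium hydroxyacyl chains, was called at chr3:131271272-131272222 in Sphk2 KO replicate 2 (−log10 q 6.15) and in both WT libraries (8.69 and 9.06), but not in Sphk2 KO replicate 1. A lack in that library alone was found at 7.14% of all genes with gene-end peaks in both WT libraries. Echdc2, a gene of the enoyl-CoA hydratase family, had no peak in or within 10 kb of its body in any library.

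The auxiliary enzymes prepare unsaturated chains. Eci1, an isomerase that moves double bonds, had −log10 q of 43.3 and 86.9 in Sphk2 KO and 60.9 and 87.2 in WT, at an end that it shares with Rnps1. Its relative Eci2, which also acts in peroxisomes, had no peak at the outer gene ends, but a region at its listed start, inside the annotated span (chr13:34993541-34994702) was called in every library, with 16.0 and 35.1 in Sphk2 KO and 21.0 and 36.3 in WT. Decr1, the mitochondrial dienoyl-CoA reductase, was called in both WT libraries at −log10 q of 3.61 and 10.6, and in neither Sphk2 KO library (chr4:15945127-15945589).

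Genes for electron transfer carried 2 of the 3 highest-ranked gene-end regions of the list. Etfdh passes electrons from the flavoprotein to ubiquinone. Its region at chr3:79628350-79629625, which 4930579G24Rik shares, had −log10 q of 96.5 and 184 in Sphk2 KO and 157 and 153 in WT, at ranks 967 and 1002 of the Sphk2 KO lists and 623 and 893 of the WT lists. Etfb, a subunit of the flavoprotein, had 78.9 and 138 in Sphk2 KO and 98.2 and 93.5 in WT at an end that it shares with Cldnd2. The gene of the other subunit, Etfa, had 15.8 and 37.2 in Sphk2 KO and 38.5 and 49.0 in WT. Ucp2, a mitochondrial carrier of the uncoupling protein family that is prominent in immune cells, had a gene-end region (31.6 and 61.8 in Sphk2 KO, 47.2 and 75.4 in WT) and a stronger one inside the gene (chr7:100495418-100496098, 66.9 and 136 in Sphk2 KO, 116 and 112 in WT). Etfb, Ucp2 and Echs1 lie on chromosome 7, which carries Sphk2, at 2.27, 54.8 and 94.4 Mb from it, and none of them held a region private to a genotype.

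The 4 peroxisomal members had end scores both strong and weak. Acox3, an oxidase for branched chains, had −log10 q of 19.8 and 58.1 in Sphk2 KO and 36.4 and 55.02 in WT. Acaa1a, a peroxisomal thiolase, had 32.2 and 58.3 in Sphk2 KO and 46.0 and 50.3 in WT, in a stretch that also holds an end of Myd88. Hsd17b4, which encodes the D-bifunctional protein, had weak peaks in all libraries (5.60 and 11.9 in Sphk2 KO, 8.52 and 11.04 in WT). Ehhadh, the L-bifunctional protein and a known PPAR target in liver, was called in both WT libraries at 4.26 and 2.90 and in neither Sphk2 KO library. That region (chr16:21787526-21787816) was 291 bp wide and ended 18 bp from the listed start. A region 5976 bp beyond the gene, on the side of the start, was called in every library, with 26.4 and 57.0 in Sphk2 KO and 27.4 and 37.7 in WT.

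Differences between the genotypes in which regions were called were few and mostly weak. At gene ends, Decr1 and Ehhadh were called in both WT and neither Sphk2 KO library, 2 of the 28 members with gene-end peaks in both WT libraries (7.14%, against 2.74% of such genes overall). No member was called at a gene end in both Sphk2 KO libraries and neither WT library, against 0.239% overall. Without Sphk2 KO replicate 2 the WT-only share was 10.7% for the members, with Hadh added, against 9.87% overall. When every library was reduced to its 20759 best peaks, or to peaks with a −log10 q of at least 5, no member was private to WT, against 1.72% and 2.38% of all genes. Decr1 then kept its call in WT replicate 2, and Ehhadh had none in any library. Counted as regions, the gene ends held 29, of which 24 were shared by every library (82.8%, against 75.5% overall), 2 were WT-only (6.9%, against 2.89%) and 0 were Sphk2 KO-only (against 0.231%).

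**Figure D2:**
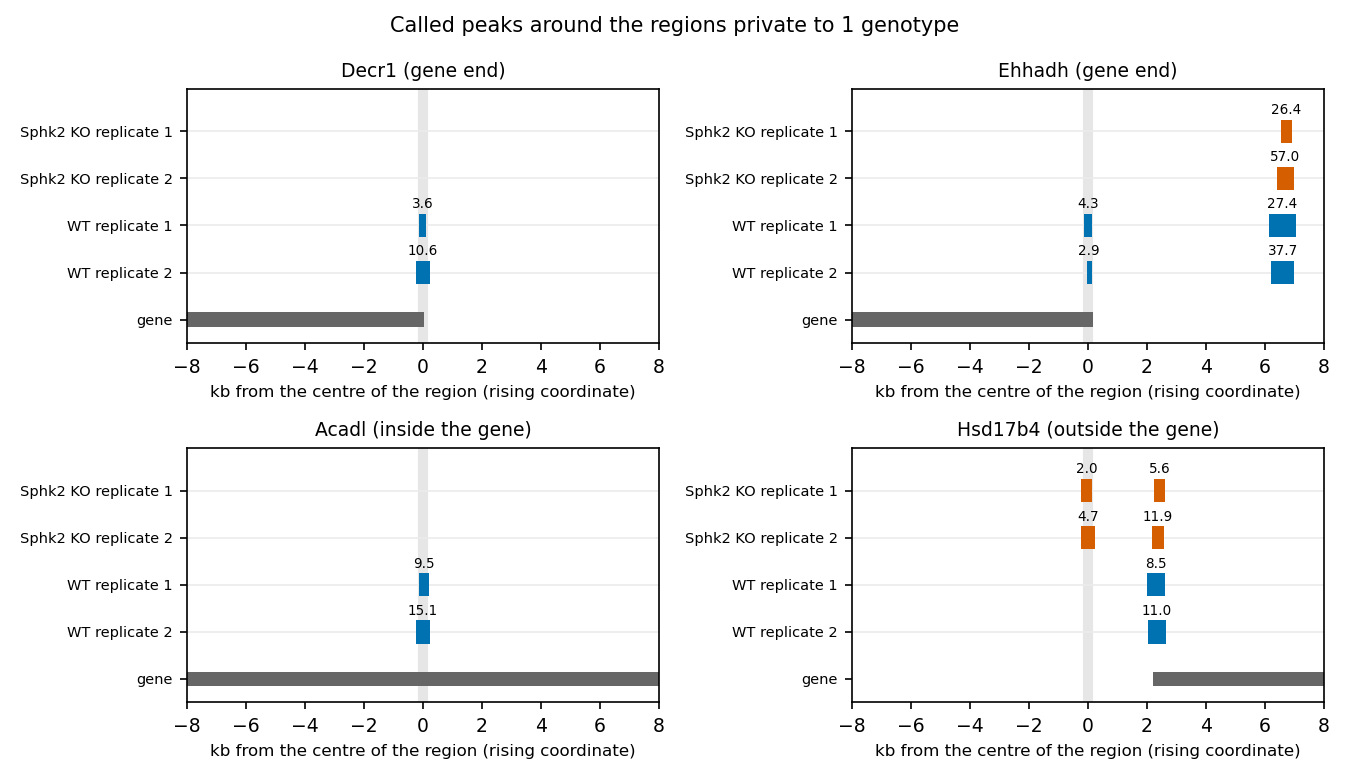
Called peaks around the 4 regions private to a genotype, drawn as bars per library (Sphk2 KO above WT) with each peak's −log10 q written above it. The horizontal axis is the distance in kb from the region's centre and the dark bar is the annotated gene. The WT-only peaks at Decr1, Ehhadh and Acadl have scores of 2.90 to 15.1, and the Sphk2 KO-only peaks near Hsd17b4 scores of 2.03 and 4.69.

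The bodies extended by 10 kb held 74 distinct regions. All 4 libraries called 42 of them (56.8%), against 48.9% of such regions over all protein-coding genes. Called in both WT and neither Sphk2 KO library were 3 regions (4.05%, against 5.45% overall), at Decr1, Ehhadh and Acadl. The Acadl region lay inside the gene, 20938 bp from its start (chr1:66841917-66842371), with −log10 q of 9.51 and 15.1 in WT and no peak in Sphk2 KO, and it alone stayed private to WT with lists of equal length. The only Sphk2 KO-only region (1.35%, against 0.62% overall) lay 1985 bp outside Hsd17b4, with −log10 q of 2.03 and 4.69. It was private to Sphk2 KO neither with lists of equal length nor at a −log10 q of at least 5. A further 9 regions (12.2%, against 8.36% overall) lacked a call in Sphk2 KO replicate 1 alone. Without that library, 3 regions were WT-only and 6 were called in Sphk2 KO replicate 2 and neither WT library, against 1 with both Sphk2 KO libraries. Without Sphk2 KO replicate 2 there were 12 WT-only regions. Shares over all genes were not computed for body regions with a library left out, so these counts cannot be read as particular to the members. At gene ends, the WT-only share of all genes was 9.87% without Sphk2 KO replicate 2, against 2.74% with all 4 libraries. Of 20 regions outside the members' bodies and ends, 11 lay at the end of another protein-coding gene and cannot be assigned to the member.

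**Figure D3:**
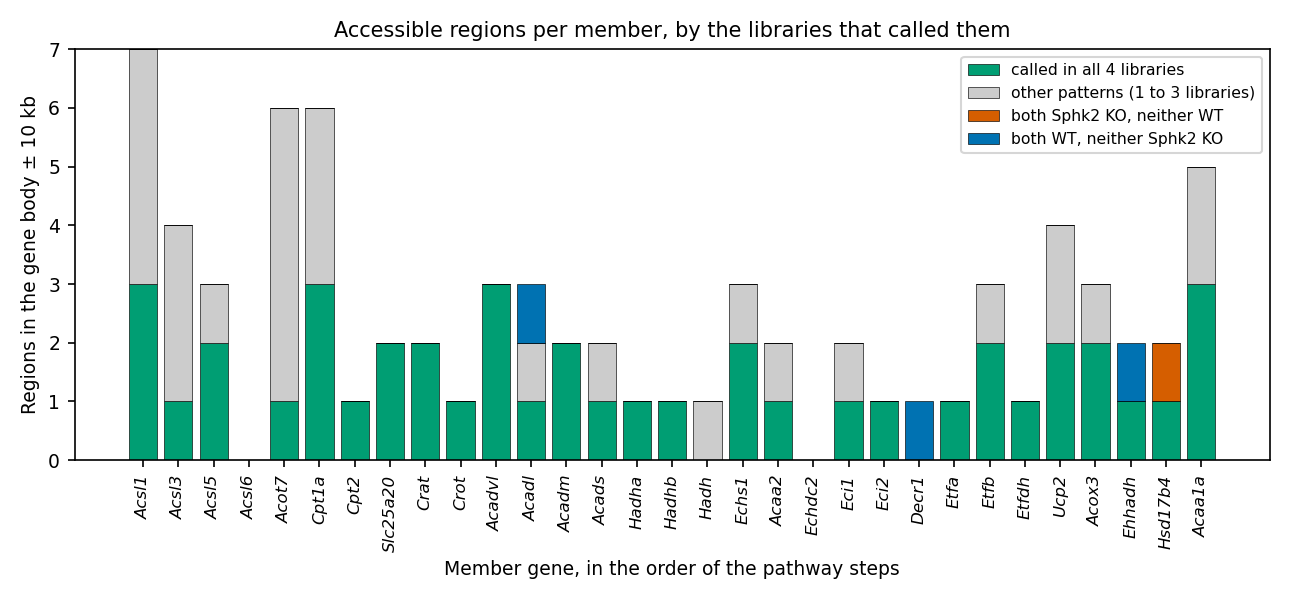
Bars give the number of accessible regions within each member's body extended by 10 kb, in the order of the pathway steps, coloured by the libraries that called them. Acsl1 holds 7 regions and Acot7 and Cpt1a 6 each, Acsl6 and Echdc2 hold none, and regions private to a genotype appear at Acadl, Decr1, Ehhadh (WT) and Hsd17b4 (Sphk2 KO).

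Ranks were compared over the 16973 regions that all 4 libraries called, so that every library ordered the same regions. A region's percentile is then its place by −log10 q within one library, 100 being the highest score. The 24 shared gene-end regions of the members had median percentiles of 52.2 and 59.0 in Sphk2 KO and 57.2 and 61.5 in WT, below the medians of shared gene-end regions over all genes (63.7 and 64.8 in Sphk2 KO, 65.4 and 65.1 in WT). The median difference, Sphk2 KO minus WT, was -2.23 points for the members and -0.452 for all genes. The groups did not overlap in 7 of the 24 regions. In 3 (12.5%, against 17.3% overall) both Sphk2 KO libraries ranked the region above both WT libraries, and in 4 (16.7%, against 23% overall) both WT libraries ranked it higher.

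The regions that ranked higher in both Sphk2 KO libraries were those of Cpt1a, Slc25a20 and Etfb. Cpt1a stood at percentiles of 52.1 and 51.9 in Sphk2 KO and at 42.6 and 42.6 in WT. The libraries of each genotype nearly coincided there, and the difference of 9.36 points was 5.01 when regions were ranked by pileup height. Slc25a20 stood at 52.2 and 49.5 in Sphk2 KO and at 44.9 and 37.4 in WT. Etfb stood at 90.4 and 87.9 in Sphk2 KO and at 86.6 and 82.1 in WT, so that its groups were close to touching. Etfb lies 2.27 Mb from Sphk2, and the part of this linkage was not tested. A shared region 7451 bp beyond Etfb stood at 91.67 and 87.79 in Sphk2 KO and at 85.25 and 81.89 in WT. On the same chromosome, the Ucp2 end overlapped between the genotypes and the Echs1 end ranked higher in both WT libraries. Cpt1a and Slc25a20 belong to the carnitine shuttle, whose other members Cpt2, Crat and Crot overlapped between the genotypes. Cpt2 stood at 81.8 and 77.4 in Sphk2 KO and at 73.8 and 79.5 in WT.

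The regions that ranked higher in both WT libraries were those of Etfa, Acsl3, Echs1 and Etfdh. Etfa stood at 39.4 and 44.4 in Sphk2 KO and at 54.6 and 58.7 in WT, and was the only gene-end region of the list whose groups were at least 10 points apart (2.77% of all shared gene-end regions were so in this direction, 1.37% in the other). Acsl3 stood at 30.5 and 45.9 in Sphk2 KO and at 59.8 and 51.6 in WT. The Acsl3 difference of -17.49 points was -8.24 without Sphk2 KO replicate 1. Echs1 stood at 52.0 and 68.8 in Sphk2 KO and at 69.2 and 71.6 in WT, and Etfdh at 94.3 and 94.1 in Sphk2 KO and at 96.4 and 94.8 in WT. At Echs1 and Etfdh the nearest libraries of the groups differed by under 1 point. The subunits of the electron transfer flavoprotein thus stood on opposite sides, Etfb higher in Sphk2 KO and Etfa higher in WT.

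**Figure D4:**
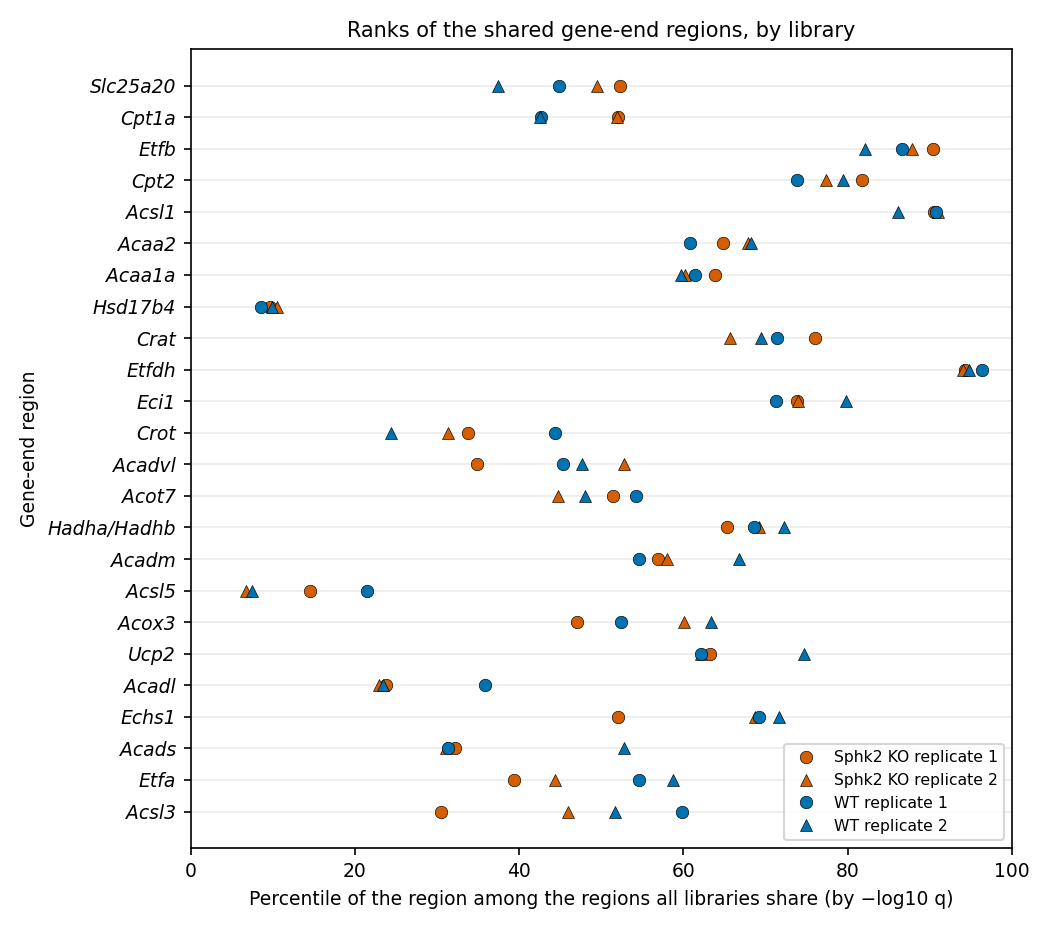
Each row is a gene-end region called in all libraries, ordered by the difference between the genotypes, and each point is a library (Sphk2 KO orange, WT blue, replicate 1 round, replicate 2 triangular). The horizontal axis is the percentile among the 16973 shared regions by −log10 q. Slc25a20, Cpt1a and Etfb at the top have both Sphk2 KO points to the right, and Acsl3 and Etfa at the bottom have both WT points to the right.

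Over all 42 shared regions of the extended bodies, the 24 gene-end regions included, the counts lay near those over all genes: both Sphk2 KO libraries ranked 9 higher (21.4%, against 21.6% overall) and both WT libraries 8 (19%, against 21.2% overall). Groups at least 10 points apart were found once towards Sphk2 KO (2.73% overall) and once towards WT (3.1% overall), the WT one being the Etfa end. The Sphk2 KO one was a region 1696 bp beyond Acaa1a (chr9:119351992-119352317), which stood at percentiles of 24.7 and 24.6 in Sphk2 KO and 12.4 and 13.1 in WT. The region beyond the Ehhadh start stood at 56.9 and 59.5 in Sphk2 KO and at 41.98 and 48.2 in WT, the opposite direction to the gene-end calls of that gene. A region 6775 bp beyond Slc25a20, at an end of Prkar2a, stood at 66.0 and 54.2 in Sphk2 KO and at 37.8 and 45.5 in WT.

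Other lipid genes gave few calls private to a genotype, and such calls were few over all genes as well. They made up 2.74% of genes with gene-end peaks in both WT libraries and 0.239% of those with them in both Sphk2 KO libraries. Gene-end peaks were called at 42.5% to 48.8% of all genes. Of 36 oxidation genes outside the list, 24 and 23 had gene-end peaks in Sphk2 KO and 24 and 26 in WT, and Acsf2, an acyl-CoA synthetase, was the only one private to WT (−log10 q 2.98 and 5.42). Of 22 genes of fatty acid uptake and handling, 11 and 12 had them in Sphk2 KO and 13 and 15 in WT. Regulators of the pathway, among them the PPAR and PGC1 genes, stood at 17 and 22 of 27 genes in Sphk2 KO and at 22 and 22 in WT, so that Sphk2 KO replicate 1 alone was lower. Peroxisome assembly and import genes stood at 18 and 18 of 20 in Sphk2 KO and at 18 and 19 in WT, and ketone body and acetyl-CoA genes at 8 of 11 in every library. No gene of these 5 lists was private to Sphk2 KO.

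**Figure D5:**
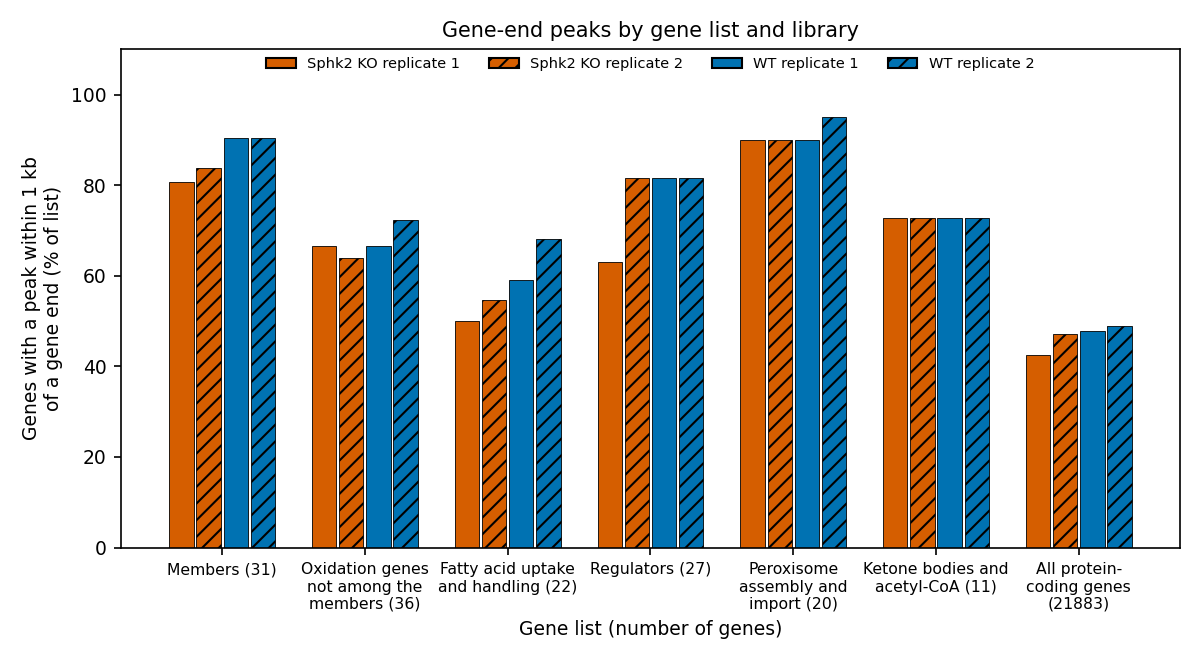
Bars give the share of each gene list called at a gene end (1 kb), per library (Sphk2 KO orange, WT blue, replicate 2 hatched), and the number of genes is written under each list. The members stand at 80.6% and 83.9% in Sphk2 KO and 90.3% in both WT libraries, above all protein-coding genes at 42.5% to 48.8%.

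Member promoters whose start lay in a peak in all 4 libraries had more CpGs at the median than those without, with overlapping ranges. The part of base composition in the calls was not tested. In the 21 listed promoters whose start lay in a peak in all 4 libraries, GC content had a median of 60% (range 49.6% to 75.6%). The number of CpG dinucleotides in 250 bases had a median of 14 (range 8 to 28). In the 7 whose start lay in no peak, the medians were 57.2% (range 48.4% to 74.8%) and 6 CpGs (range 1 to 30). Several of these 7 are starts of Acsl6. Acot7 and Acsl1 also have a start among them, though both genes had gene-end peaks in all 4 libraries. So does Ehhadh, whose WT-only gene-end region ended 18 bp from its start. Over all 21262 promoters of protein-coding genes the medians were 61.6% and 18 CpGs for those called in all libraries and 50% and 3 for those called in none. An SP/KLF match was found in 23 of the 30 member promoters (76.7%), against 42.6% of all promoters and 65.2% of promoters called in all libraries. A CCAAT box was found in 14 (46.7%, against 35.4% of all promoters and 38% of called ones). Neither PPAR form was found in these windows, and the relaxed form occurs in 0.32% of all promoters. ETS matches stood in the promoters of Cpt2 and Slc25a20 (6.67% of the member promoters, against 3.79% of all promoters and 8.23% of promoters called in all libraries).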

How the data were processed

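Peak lists of 4 ATAC-seq libraries were analysed, 2 from Sphk2 KO and 2 from WT mice, each made from 20000 sorted cells with 40% of the recommended Tn5, per the labels' protocols and the design text. The submitters' processing notes name cutadapt, BWA, MACS2 and the mm10 build. Per the file headers, each library had its own run of MACS 2.1.1.20160309 in paired-end mode with no control, a q-value limit of 0.05 and 1 fragment kept per position. The deposited lists give, for each peak, the pileup height (an unscaled coverage signal), the −log10 of the p-value and of the q-value, and the authors' fold enrichment over local background, a ratio. A shift of fragment ends for Tn5 is not stated in the labels.

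Peaks sharing at least 1 bp were merged across libraries into 45299 regions, each credited to the libraries whose peaks formed it. Genes are RefSeq spans on GRCm38.p6. A gene was called when a peak lay within 1 kb of either end, or in the body extended by 10 kb. No counts per region were used, so no count model was run. Merging and the counting of private regions were tested on simulated peaks (python 3.11.15, pandas 2.3.3). Overlap calls were tested against a brute-force comparison on a sample of the real peaks and genes. Motifs were searched in the 250 bases before each listed start. Members, lists and settings were chosen with earlier results of these data known. All members are accounted for. Those given with values followed a rule: calls that differ between libraries, the highest and lowest ranks, groups at least 10 points apart, and the first enzymes of each step, with other members of each step added after their values were seen. Alternatives were a −log10 q of at least 5, lists of equal length, other windows and merging rules, other scores for ranks, and each library left out. The within-1-kb-of-a-listed-start window, the ranks over extended bodies and the replicate block were added after the data had been seen.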

Additional observations from a re-analysis of the deposited data

How the results depend on the processing

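The number of members with a gene-end peak was lower in Sphk2 KO under every alternative run, by 1 to 3 genes on average. With both libraries of each genotype kept, exact permutation p-values were 0.333 or 0.667. Over all genes, too, each Sphk2 KO library lay below each WT library at both stricter settings and with any library left out. Within 1 kb of a listed start, 22 and 24 of the 27 members with such a start were called in Sphk2 KO and 25 and 24 in WT. WT-only members numbered 0 when scores under 5 were dropped and 0 when lists were cut to one length, against 2, and 2 to 3 with a library left out. Within 1 kb of a listed start the number was 1, Ehhadh. Decr1 has no listed start and could not be counted there, so this lower number does not show a lost call. The 3 arose without Sphk2 KO replicate 2 (10.7% of members called in both WT libraries, against 9.87% of all genes so called). WT-only gene-end regions numbered 0 and 0 under the first pair of settings, and ranged from 2 to 4 with a library left out. Sphk2 KO-only gene-end regions numbered 1 in place of 0 when the distance to the gene end was doubled. WT-only body regions numbered 1 and 1 under those settings, against 3, and 3 to 12 with a library left out. Sphk2 KO-only body regions numbered 0 under both and 0 without extension of the body, and 1 to 6 with a library left out. Gene-end regions ranking higher in Sphk2 KO numbered 5 when only gene-end regions were ranked, against 3, and 6 to 8 with a library left out. Those ranking higher in WT numbered 7 to 11 with a library left out. Over extended bodies, regions ranking higher in WT numbered 5 by fold enrichment, against 8, and 13 to 17 with a library left out, and those ranking higher in Sphk2 KO 14 to 17. A genotype left with 1 library has fewer values to overlap, which raises such counts by construction. Which genotype had more such regions also changed: gene-end regions ranking higher numbered 5 in Sphk2 KO and 3 in WT when only gene-end regions were ranked, and body regions 14 in Sphk2 KO and 17 in WT without Sphk2 KO replicate 1, and likewise without WT replicate 1. Private body regions without Sphk2 KO replicate 1 numbered 6 in Sphk2 KO and 3 in WT. For region and rank counts with a library left out, no shares over all genes were computed. Replicate numbers 1 and 2 stand in both genotypes, but the labels tie them to no batch or litter, and deviations of same-numbered libraries across the shared regions had r = 0.0117. With the replicate block, added after the data had been seen, the differences stayed at -2.5 members at gene ends and -1.5 in extended bodies, each with an exact sign-flip p of 0.5, the smallest 2 pairs allow. Both Sphk2 KO libraries had fewer fragments than either WT library, and the part of depth in the calls was not tested.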
